A study of Macaca mulatta with 6 samples.

Results

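Transcripts of the Wnt receptor genes were compared between cultures of rhesus monkey (Macaca mulatta) spermatogonial stem cells (SSCs) with and without platelet-derived growth factor (PDGF). The genes were chosen by name, as the frizzled receptors FZD1, FZD2, FZD4, FZD6, FZD7 and FZD8, the co-receptors LRP5 and LRP6, and the R-spondin receptors LGR4 and LGR6. Of these 10 genes, 9 were found among the 17795 genes of the count table, and FZD1 was not analysed here. All 9 passed the filter on low counts and are described below.

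Bulk RNA sequencing gave 3 libraries of cells cultured with PDGF (SSC PDGF+) and 3 of PDGF-free controls (SSC PDGF-). In each group the labels put replicate 1 in batch 1 and replicates 2 and 3 in batch 2. The methods describe SSC culture in droplets of basement membrane extract, under a medium with serum and recombinant Wnt3a, GDNF, EGF, bFGF and LIF beside PDGF. The PDGF-free medium is not described separately, so whether the controls also received Wnt3a, a Wnt ligand, is not given in the sources used here. Donor age, days in culture and whether the replicates are separate cultures are not given in the sources used here, so p-values measure only the spread between these libraries, which may be technical.

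Wnt proteins bind frizzled receptors, which cross the membrane several times, together with LRP5 or LRP6, single-pass co-receptors. The complex recruits Dishevelled and holds back the breakdown of β-catenin, which then acts with TCF factors in the nucleus. LGR4, LGR5 and LGR6 bind R-spondins and so slow the removal of frizzled and LRP proteins by the ubiquitin ligases ZNRF3 and RNF43. In the testis, Wnt signals have been tied to the proliferation of spermatogonia and to the function of Sertoli cells.

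Total counts ranged from 10593800 to 14102700 per library, and expression is given as CPM, counts scaled to a common library size after TMM normalization. The labels give the tissue as testis, and the study describes SSCs. Transcripts of the listed germ cell markers and of several spermatogonial markers were scarce, whereas those of the spermatid markers TNP1 and TNP2 were not. Of the other spermatid markers in the table, ACRV1 lay between 0.287 and 1.47 CPM over the 6 libraries. SPACA1 lay between 0 and 1.40 CPM and TSSK6 between 1.96 and 22.8. The spermatid marker TNP1 was at 25.2 to 38.4 CPM with PDGF and 205 to 346 CPM without. DDX4 lay between 0.15 and 3.64 CPM over the 6 libraries, DAZL between 0 and 1.27 and GFRA1 between 0 and 0.739, and NANOS2 and DMRT1 had no count. The spermatogonial list, with 10 of 12 markers in the table, summed to 376 to 436 CPM with PDGF and 348 to 461 CPM without, and ID4 and UCHL1 made up most of it. Of its 3 tested markers 1 was called higher and 1 lower, and they lay in opposite directions, with UCHL1 at 241 to 285 CPM with PDGF and 173 to 201 without, ID4 at 127 to 135 and 148 to 177, and FGFR3 at 7.16 to 17.8 and 25.9 to 81.8. COL1A1 and COL1A2, collagen genes of stromal cells, reached 2723 to 8241 and 4955 to 6539 CPM. The name SSC is therefore kept here as the study's name for the cultures.

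In SSC PDGF+ cultures, FZD4 was 2.72-fold lower, LRP6 was 1.55-fold higher, and LGR6 went from a single read to 103 reads. These 3 genes passed the test over all genes, edgeR's quasi-likelihood test with Benjamini-Hochberg adjusted p under 0.05. The 3 most abundant of the 9 genes, FZD7, FZD2 and LRP5, differed by at most 0.11 on the log2 scale, within the spread between replicates. Of the 9 members, 2 were called higher and 1 lower, where 7.61% of the 11539 genes tested were called higher, 10.7% lower and 18.3% in either direction. One of the higher calls, LGR6, passed the filter through the SSC PDGF+ libraries alone, so the count is no measure of the members against that share. The groups did not overlap for 5 members (2 higher, 3 lower), against 37.6% of all genes tested (18.2% higher, 19.3% lower). LGR6 is among the higher members here and in the fit with the block, so the same limit holds. A replicate block in the model gave 2 members higher and 3 lower (FZD4, FZD6 and LGR4), where it called 60.1% of all genes, 31.1% higher and 29% lower. Over all genes, the share called was 23.6% with DESeq2, 18% with limma-voom, 52.8% in batch 2 alone and, after summing replicates 2 and 3 within groups, 5.78% without and 59.1% with batch as a term. The median log2 fold change was -0.09 over the members and 0.02 over all genes tested.

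**Figure D1:**
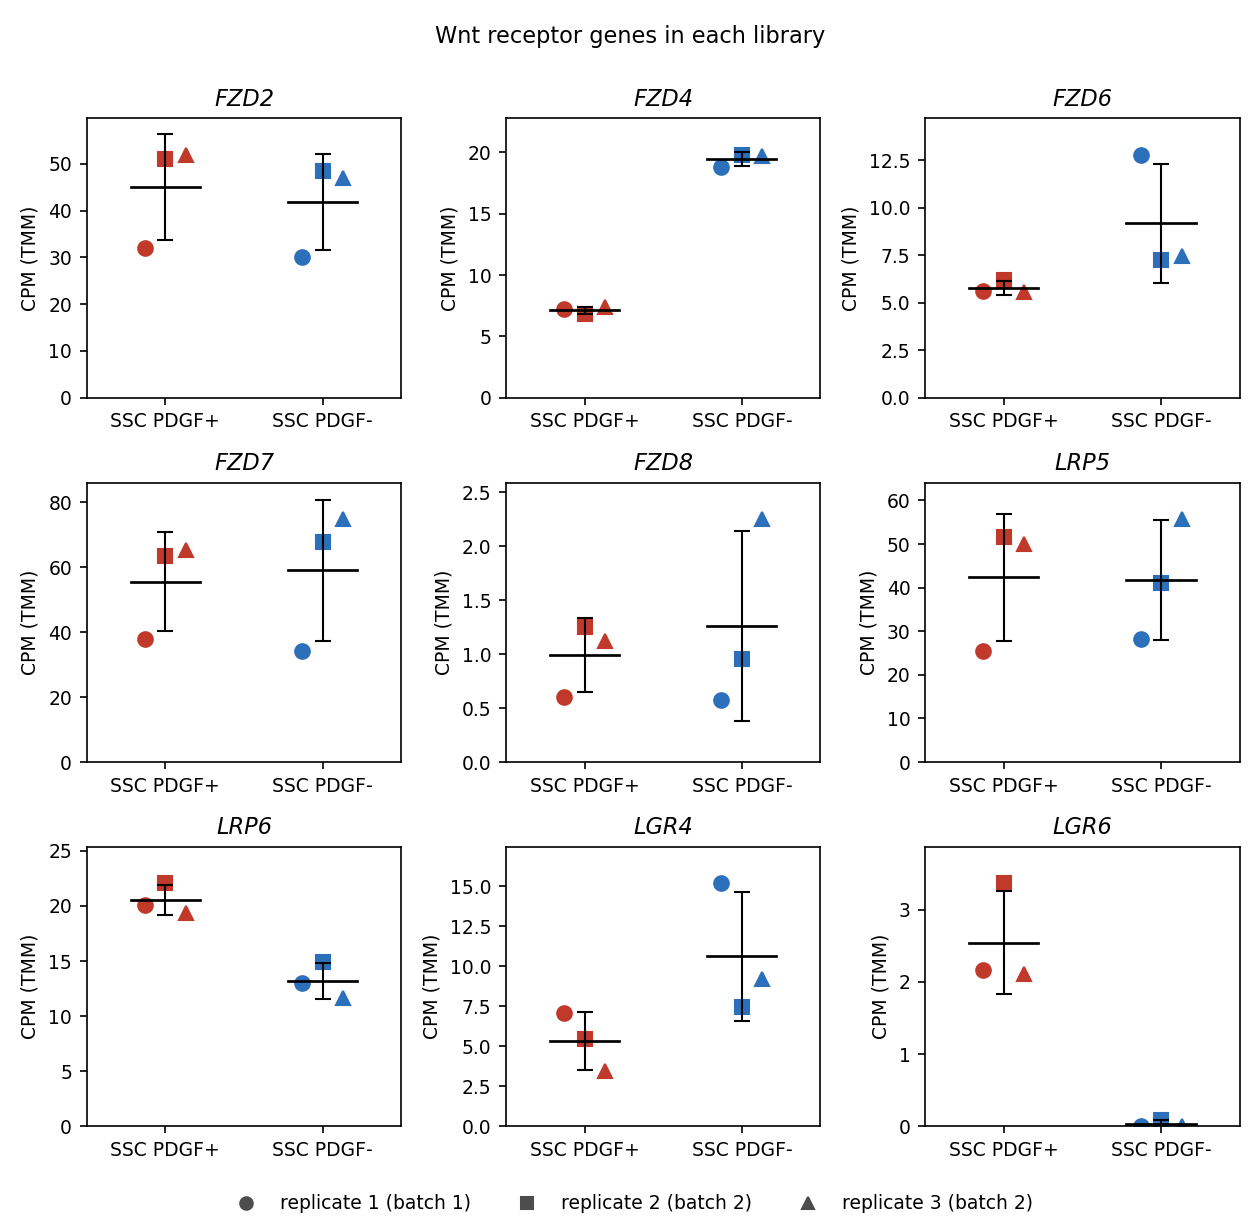
CPM (TMM normalized, linear axis from 0) of each receptor gene in the 6 libraries; symbols mark replicates, horizontal bars the mean of 3 libraries and error bars the SD. FZD4, FZD6, LRP6, LGR4 and LGR6 do not overlap between groups, whereas for FZD2, FZD7 and LRP5 the batch 1 library is the lowest of each group.

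Levels were set on a common scale as CPM per kb of exon in the RefSeq gene model. Among the 9 members FZD7 was the most abundant, at 13.8 ± 3.81 CPM per kb with PDGF and 14.7 ± 5.40 without (SD, n = 3 each). FZD2 followed at 10.02 ± 2.50 and 9.31 ± 2.29 CPM per kb and LRP5 at 8.26 ± 2.84 and 8.13 ± 2.68 CPM per kb (SD, n = 3 each). The ranges of FZD7 and FZD2 overlapped over the libraries of a group, but FZD7 lay above FZD2 within each of the 6 libraries. FZD2 and LRP5 also overlapped, and LRP5 was the higher of them in SSC PDGF- replicate 3, so their order was not resolved. On this scale FZD7 stood at the 63.6th percentile of the tested genes and LGR6 at the 2.18th percentile, so that the receptors spanned middle to very low expression.

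Below these came LRP6 with PDGF, at 3.54 ± 0.238 CPM per kb (SD, n = 3), with no overlap with LRP5 above it or FZD6 below it. Without PDGF, LRP6 at 2.28 ± 0.285 CPM per kb overlapped FZD6 at 2.34 ± 0.802 and LGR4 at 2.13 ± 0.812 (SD, n = 3 each). FZD4 ranked seventh in both groups, and FZD8 and LGR6 held the last places in an order that differed between the groups. FZD8, at 0.316 ± 0.108 CPM per kb with PDGF and 0.401 ± 0.279 without (SD, n = 3), overlapped LGR6 with PDGF.

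The summed level of the 5 frizzled genes was 18.9, 29.7 and 30.3 CPM per kb in SSC PDGF+ replicates 1, 2 and 3 and 20.3, 31.6 and 33.5 in SSC PDGF-. The sum was lower with PDGF within each replicate number, the groups overlapped, and replicate 1, the batch 1 library, was the lowest of each group. FZD2 and FZD7 together held 88.0% to 92.0% of the sum with PDGF and 74.8% to 87.6% without. The share of FZD4 was 3.40%, 2.03% and 2.16% in SSC PDGF+ replicates 1, 2 and 3 and 8.2%, 5.56% and 5.22% in SSC PDGF-. It rested on the long RefSeq exon model of FZD4. With the longest transcript as the length, the mean share was 3.97 ± 1.17% with PDGF and 9.70 ± 2.37% without (SD, n = 3).

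**Figure D2:**
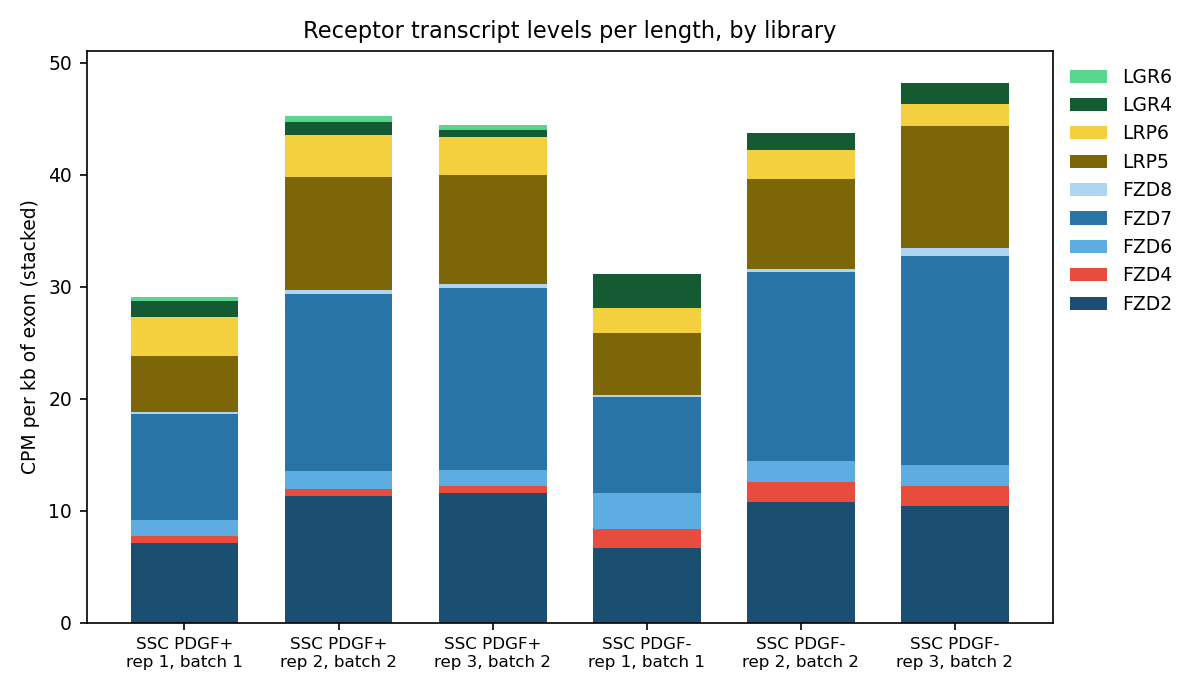
CPM per kb of exon of the 9 receptor genes, stacked by library, with the axis from 0. FZD7, FZD2 and LRP5 fill most of every bar, and the bars of both batch 1 libraries are shorter than those of batch 2 in their group.

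FZD4 is the frizzled receptor that also binds Norrin, and it is known for its part in the growth of retinal vessels. Its level was 7.22, 6.80 and 7.36 CPM in SSC PDGF+ replicates 1, 2 and 3 and 18.8, 19.8 and 19.7 CPM in SSC PDGF-. The groups were far apart and each was narrow, with no batch difference visible. On the log2 scale the change was -1.45 (standard error 0.17, edgeR adjusted p = 0.0011). Within batch 1 it was -1.38, within batch 2 -1.48. With each library left out in turn it stayed between -1.48 and -1.40 and kept its call in all 6 fits, and it kept the call with replicates 2 and 3 of each group summed (edgeR adjusted p = 0.034).

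The sums of spermatid, germ cell and epithelial marker transcripts were also lower in SSC PDGF+. The 5 of 8 spermatid markers in the table summed to 50.1 to 79.4 CPM with PDGF and 430 to 702 CPM without. TNP1 and TNP2 made up most of this sum, and ACRV1 overlapped between groups (0.313 to 0.676 CPM with PDGF, 0.287 to 1.47 without). The 4 germ cell markers summed to 0.301 to 1.22 CPM against 5.09 to 9.58, and the 4 of 5 epithelial markers in the table to 14.5 to 22.1 CPM against 39.0 to 53.2. The epithelial marker EPCAM was at 0 in SSC PDGF+ replicates 1 and 3, and the germ cell marker TEX101 in all 3 SSC PDGF+ libraries. Their part in the lower FZD4 was not tested, and in bulk libraries fewer cells of a type and less RNA per cell cannot be told apart. The stromal list, with all 9 markers in the table, overlapped between groups in its sum, at 11703 to 16949 CPM with PDGF and 11355 to 14145 without, and COL1A1 and COL1A2 made up most of it. Of its markers 2 were called lower and 0 higher. ACTA2 (134 to 146 CPM with PDGF, 300 to 328 without), TAGLN (221 to 330 and 359 to 533), PDGFRA (505 to 633 and 725 to 963) and DCN (714 to 1013 and 1088 to 1572) were each below the controls without overlap, as FZD4 was, and their part in its lower level was not tested. The Sertoli list, with 7 of 10 markers in the table, was at 1450 to 1922 CPM with PDGF and 870 to 1175 without, and CLU made up most of it while FSHR was at 0 with PDGF. Of its 6 tested markers 1 was called higher and 1 lower, and AMHR2 lay the other way from the sum, at 1.09 to 1.20 CPM with PDGF and 2.96 to 5.78 without. The Leydig list ran from 263 to 329 CPM with PDGF and from 217 to 261 without, with CYP11A1 at 0. STAR made up most of it, at 257 to 322 CPM with PDGF and 215 to 254 without. Of its 3 tested markers 0 were called, and CYP17A1 overlapped between groups (2.30 to 2.48 CPM and 0.821 to 3.35). The endothelial and macrophage lists overlapped between groups. The part of the Sertoli and Leydig lists in the higher LRP6 and LGR6 was not tested.

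FZD6, a frizzled receptor tied to planar cell polarity, was at 5.60, 6.18 and 5.56 CPM in SSC PDGF+ replicates 1, 2 and 3 and at 12.8, 7.28 and 7.45 CPM in SSC PDGF-. All SSC PDGF- libraries lay above all SSC PDGF+ libraries, but the batch 1 control stood apart. The log2 fold change was -0.67 (standard error 0.27, edgeR adjusted p = 0.13), with -1.19 in batch 1 and -0.33 in batch 2. Blocking on the replicate number gave -0.64 (edgeR adjusted p = 0.015), and after SSC PDGF- replicate 1 was left out it was -0.36 (edgeR adjusted p = 0.28).

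FZD7 and FZD2, closely related receptors of canonical and non-canonical Wnt signals, carried most of the frizzled reads. FZD7 was at 37.9, 63.4 and 65.3 CPM in SSC PDGF+ replicates 1, 2 and 3 and 34.3, 67.8 and 74.9 CPM in SSC PDGF-. Replicate 1 was the low library in both groups, and the groups overlapped. Its log2 fold change was -0.09, with a 95% interval from -0.82 to 0.65 (edgeR adjusted p = 0.88). The block narrowed this interval to -0.22 to 0.10 (edgeR adjusted p = 0.53).

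FZD2 had 32.1, 51.1 and 52.0 CPM with PDGF and 29.98, 48.6 and 46.9 CPM without, in the order of the replicates. Each SSC PDGF+ library lay slightly above its SSC PDGF- partner, and the groups overlapped. The log2 fold change was 0.11, with a 95% interval of -0.48 to 0.69 (edgeR adjusted p = 0.80) and of -0.07 to 0.28 in the fit with the block (edgeR adjusted p = 0.29). In the fit with the block, the intervals of both genes lay within 0.28 of 0 on the log2 scale.

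FZD8 had 9, 16 and 15 counts in SSC PDGF+ replicates 1, 2 and 3 and 7, 10 and 23 counts in SSC PDGF-. At these counts the 95% interval of its log2 fold change ran from -1.66 to 1.00 (value -0.33, edgeR adjusted p = 0.73), and no difference could be detected at this depth.

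LRP6 is the co-receptor whose phosphorylated tail binds Axin. Its level was 20.1, 22.1 and 19.4 CPM in SSC PDGF+ replicates 1, 2 and 3 and 12.98, 14.9 and 11.7 CPM in SSC PDGF-. Every SSC PDGF+ library lay above every SSC PDGF- library. The log2 difference, 0.64 (standard error 0.17, edgeR adjusted p = 0.038), was nearly equal within the batches, at 0.63 in the first and 0.64 in the second. The call was lost in all 6 fits that left out a library, at edgeR adjusted p of 0.055, 0.14 and 0.092 without SSC PDGF+ replicates 1, 2 and 3 and 0.055, 0.064 and 0.135 without SSC PDGF- replicates 1, 2 and 3, while the log2 fold change stayed between 0.56 and 0.74. It was also lost with replicates 2 and 3 of each group summed (edgeR adjusted p = 0.24). The block gave an edgeR adjusted p of 2.3e-04.

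LRP5, the co-receptor known for its role in bone mass, was at 25.6, 51.5 and 49.96 CPM in SSC PDGF+ replicates 1, 2 and 3 and 28.3, 41.0 and 55.8 CPM in SSC PDGF-. The groups covered the same range, and replicate 1 was again the lowest of each. The log2 fold change was 0.02, with a 95% interval from -0.72 to 0.77, or -0.19 to 0.22 with the block (edgeR adjusted p = 0.97 and 0.93). Its sign changed with the normalization. Of the summed LRP5 and LRP6 level per kb, LRP6 held 41.0%, 27.5% and 25.6% in SSC PDGF+ replicates 1, 2 and 3 and 28.8%, 24.4% and 15.6% in SSC PDGF-. This share was higher with PDGF within each replicate number, and the groups overlapped.

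**Figure D3:**
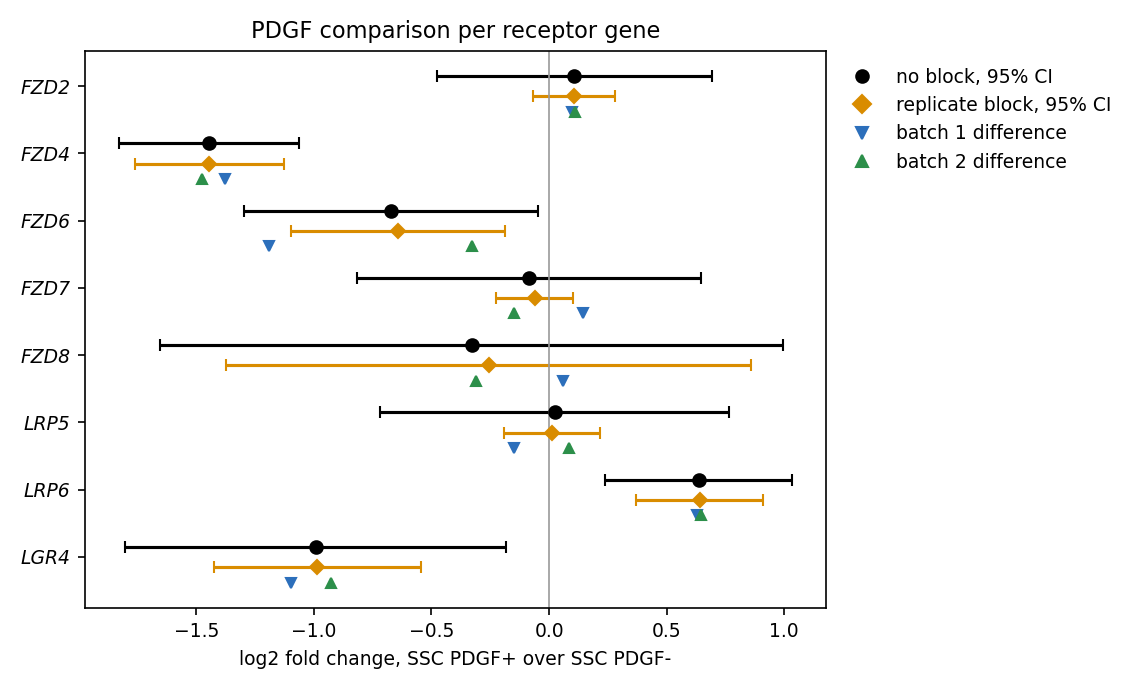
Log2 fold change of SSC PDGF+ over SSC PDGF- for 8 receptor genes, with 95% intervals from edgeR without (circles) and with (diamonds) the replicate block, and the differences within batch 1 and batch 2 (triangles, 0.5 counts added). FZD4, FZD6, LRP6 and LGR4 have unadjusted intervals off 0 in both fits, and FZD6 has the widest gap between its batch differences (-1.19 and -0.33); LGR6, with 1 read in SSC PDGF-, is left out.

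LGR6, a marker of stem cells in skin and an R-spondin receptor, had 32, 43 and 28 counts in SSC PDGF+ replicates 1, 2 and 3 and 0, 1 and 0 counts in SSC PDGF-. The groups did not overlap, and reads in the controls were nearly absent. The ratio of the group totals was 82.6, and its exact 95% interval, for counting error only, ran from 14.5 to 3295 (edgeR adjusted p = 0.0017). The gene passed the filter on low counts through the SSC PDGF+ libraries alone. It was called in all 6 fits that left out a library, at edgeR adjusted p of 0.0032 to 0.011. The level remained low, at 2.16, 3.36 and 2.1 CPM with PDGF.

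LGR4, the more broadly expressed R-spondin receptor, had 7.09, 5.47 and 3.46 CPM in SSC PDGF+ replicates 1, 2 and 3 and 15.2, 7.47 and 9.21 CPM in SSC PDGF-. The lowest control library lay just above the highest SSC PDGF+ library. The log2 fold change was -0.99 (standard error 0.35, edgeR adjusted p = 0.089), with -1.10 in batch 1 and -0.93 in batch 2. Under the block it passed the threshold (edgeR adjusted p = 4.0e-04). Because of the opposite values of LGR4 and LGR6, the share of LGR6 in their summed level per kb was 20.7%, 34.5% and 34.3% in SSC PDGF+ replicates 1, 2 and 3 and 0%, 1.09% and 0% in SSC PDGF-. Their sum was 1.51 ± 0.397 CPM per kb with PDGF and 2.14 ± 0.806 without (SD, n = 3 each), and the groups overlapped.

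Batch moved several receptors more than PDGF did. In the edgeR fit with group and batch, a test added after the data were seen, FZD7 was 1.87-fold higher in batch 2 than in batch 1 (adjusted p = 4.4e-09), LRP5 1.84-fold (adjusted p = 3.1e-07) and FZD2 1.60-fold (adjusted p = 5.8e-07). LGR4 was lower in batch 2, with a log2 difference of -0.78 (standard error 0.21, adjusted p = 0.0028). Thus 4 of the 9 members passed the threshold for batch, where 57.2% of all genes did. FZD4 and LRP6, with log2 differences of 0.03 and 0.04 between batches, did not (adjusted p = 0.89 and 0.83).

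GC content of the transcript moved with the batch difference. Among all genes tested, the median log2 difference of batch 2 over batch 1 was -0.45 in the lowest of 4 equal bins of GC content and 0.65 in the highest. FZD7, FZD2 and LRP5 have GC contents of 53.6%, 55.7% and 62.3%, and LGR4 and FZD6 have 42.4% and 38.0%. FZD7 and FZD2 fall in the third bin, whose median was 0.17, while their own log2 batch differences were 0.90 and 0.68. FZD4 and LRP6, at 44.9% and 45.0%, fall in the second bin, whose median was -0.21, and did not share its sign. The PDGF comparison moved with GC content as well, with a median log2 fold change of 0.20 in the lowest bin and -0.24 in the highest. The part of GC content in the batch and PDGF differences was not tested. Correcting for GC and length as well as the block left the calls of FZD4, FZD6, LRP6, LGR4 and LGR6 in place, with log2 fold changes of -1.63, -0.90, 0.49, -1.17 and 6.02 (edgeR adjusted p of 2.4e-09, 0.0012, 0.0026, 4.8e-05 and 1.6e-06). The difference in PDGF effect between the batches was tested as an interaction in edgeR, with no member past the threshold, an adjusted p of 0.97 for FZD6, and none of the 11539 genes called (0%). At an unadjusted p under 0.05 there were 526 genes, with FZD6 the member among them.

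**Figure D4:**
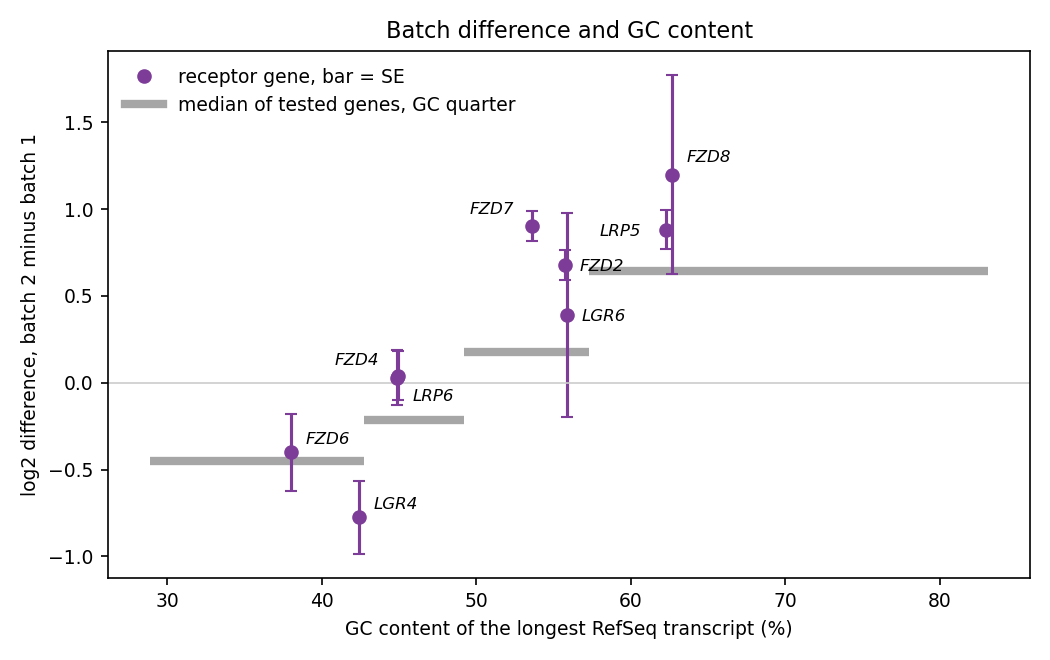
Log2 difference of batch 2 minus batch 1 (points, with standard error) against GC content for the 9 receptor genes, and the median over tested genes in each of 4 equal bins of GC content (grey bars). FZD7, FZD2 and LRP5 lie above 0 and LGR4 below it, on the same sides as the medians of their GC bins, while FZD4 and LRP6 lie at 0.03 and 0.04 in a bin with a median of -0.21.

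Transcripts of the receptor genes shared little sequence with those of other genes, and sequence outside annotated transcripts was not searched. In the RefSeq transcripts, at most 1.42% of the 50-base stretches of a member in the table (FZD8, shared with FZD5) occurred in a transcript of another gene, and 0.883% for FZD7. None of the members shared its counts with another gene in all libraries, and none had an exon that overlaps another gene's exon in the RefSeq annotation of Mmul_10. Over the 6 libraries, which fall into 2 groups, the genes with the highest Pearson correlation of log2(CPM + 1) were KRT7 (r = 1.00), ROPN1B (0.999) and CRISP2 (0.998) for FZD4 and SAMD8 (0.997), CTNNA1 (0.992) and ZNFX1 (0.991) for LRP6. As 635, 141 and 378 genes had r above 0.95 with FZD4, LRP6 and LGR6, such a pattern was common.

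Among the other genes of the Wnt pathway, 80 were tested, and 9 were higher (11.25%) and 9 lower (11.25%) with PDGF. Among the lower, ROR1, TRABD2B, SFRP4 and WIF1 had too few reads in SSC PDGF+ to pass the filter without the SSC PDGF- libraries. The count is therefore no measure of the pathway against all genes. In the fit with the block, 28 were higher and 22 lower, beside 31.1% and 29% of all genes. The nearest relatives of the receptors were examined first. FZD3 (12.5 ± 2.49 CPM with PDGF and 16.5 ± 2.87 without; SD, n = 3) and FZD9 (3.35 ± 1.48 and 2.81 ± 1.24) did not pass the test (edgeR adjusted p = 0.24 and 0.74), while with the block FZD3 was called lower (log2 fold change -0.40, edgeR adjusted p = 0.017). LGR5, the third R-spondin receptor and a marker of intestinal stem cells, had 4, 0 and 0 reads with PDGF against 8, 9 and 7, which did not reach the filter. Its summed reads gave a ratio of 7.48 (SSC PDGF- over SSC PDGF+), with an exact 95% interval from 2.57 to 29.7 for counting error. FZD10 had 6 counts with PDGF and 2 without.

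In the list of other Wnt receptors and co-receptors, 1 of 17 was higher and 1 lower, beside 7.61% and 10.7% of all genes. ROR1, a receptor of WNT5A, was at 0.683 ± 0.611 CPM with PDGF and 4.29 ± 0.762 without (SD, n = 3 each), or -2.63 on the log2 scale (edgeR adjusted p = 0.015). Leaving out SSC PDGF- replicate 3 gave 0.053. VANGL1, a planar cell polarity protein, rose from 4.64 ± 0.706 to 8.89 ± 1.46 CPM (SD, n = 3 each; log2 fold change 0.93, edgeR adjusted p = 0.028). Leaving out SSC PDGF+ replicate 2 or 3 gave an edgeR adjusted p of 0.077 or 0.11, and leaving out SSC PDGF- replicate 2 or 3 gave 0.068 or 0.10. The related ROR2 (56.1 ± 12.3 and 49.96 ± 12.97 CPM; SD, n = 3) and RYK (112 ± 16.9 and 107 ± 15.02 CPM) did not pass the test (edgeR adjusted p = 0.66 and 0.82). With the block, 3 of the list were higher and 8 lower, beside 31.1% and 29% of all genes.

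Partners of FZD4 were measured beside it. NDP, which encodes its ligand Norrin, was at 30.7 ± 1.75 CPM with PDGF and 19.8 ± 0.642 without (SD, n = 3 each), with a log2 difference of 0.63 (edgeR adjusted p = 0.021), opposite in sign to FZD4. Leaving out SSC PDGF+ replicate 2 or 3 ended the call (0.088 and 0.063 by edgeR), and so did leaving out SSC PDGF- replicate 2 or 3 (0.081 and 0.069). TSPAN12, a tetraspanin of the Norrin receptor complex, was at 8.68 ± 0.604 and 8.31 ± 3.41 CPM (SD, n = 3; edgeR adjusted p of 0.91).

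R-spondins, the ligands of LGR4 and LGR6, had few reads. RSPO3 had 23, 6 and 2 reads with PDGF against 26, 14 and 15 (edgeR adjusted p = 0.27, 0.047 with the block and 0.044 when SSC PDGF+ replicate 1 was left out). RSPO1 had none with PDGF against 3, 0 and 1, and RSPO4 had none. The ligases opposed by LGR proteins were not called, with ZNRF3 at 13.1 ± 3.65 and 11.98 ± 1.91 CPM (SD, n = 3; edgeR adjusted p = 0.75) and RNF43 too low for the filter. Of the 12 tested genes of receptor turnover, folding and processing, 0 were higher and 1 was lower, beside 7.61% and 10.7% of all genes. With the block 3 were higher and 2 lower, beside 31.1% and 29% of all genes. The lower gene was TRABD2B, a protease that inactivates Wnt proteins, at 0.726 ± 0.431 CPM with PDGF and 3.78 ± 1.07 without (SD, n = 3; log2 fold change -2.38, edgeR adjusted p = 0.013). Leaving out SSC PDGF- replicate 3 gave 0.056, and summing replicates 2 and 3 gave 0.062. MESD, the chaperone that LRP5 and LRP6 need to fold, was called with the block alone (log2 fold change 0.37, edgeR adjusted p = 4.6e-06, or 0.11 without the block).

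Of the 8 tested genes listed as secreted antagonists, 1 was higher and 5 lower, with a median log2 fold change of -1.20 beside 0.02 over all genes. SFRP4 and WIF1, among the lower, passed the filter on low counts through the SSC PDGF- libraries alone. The count and the median are therefore no measure of the list against all genes. DKK1, the antagonist that binds LRP5 and LRP6, was at 176 ± 15 CPM with PDGF and 347 ± 34.6 without (SD, n = 3 each), or -0.98 on the log2 scale (edgeR adjusted p = 0.0025, or 0.062 with replicates 2 and 3 summed). SFRP4, a secreted frizzled-related protein, was at 0.496 ± 0.146 CPM with PDGF and 15.2 ± 0.558 without (SD, n = 3; log2 fold change -4.93, edgeR adjusted p = 5.7e-05). WIF1, a secreted Wnt inhibitor, had 2, 1 and 0 reads against 21, 20 and 17 (edgeR adjusted p = 0.0031). DKKL1 was at 2.44 ± 0.358 and 23.1 ± 7.41 CPM (SD, n = 3, edgeR adjusted p = 4.5e-04). It was listed only as a relative of the Dickkopf proteins, and its action on Wnt signals was not tested. The summed spermatid markers, mostly TNP1 and TNP2, were also lower with PDGF (50.1 to 79.4 CPM against 430 to 702), and their part in the lower DKKL1 was not tested. FRZB was the higher antagonist, at 101 ± 2.50 CPM with PDGF and 57.2 ± 9.12 without (SD, n = 3; edgeR adjusted p = 0.0091, or 0.15 with replicates 2 and 3 summed). Of 6 ligands and secretion genes, 2 were higher, with WNT5B at 46.8 ± 14.7 CPM with PDGF and 7.43 ± 3.12 without (SD, n = 3; log2 fold change 2.66, edgeR adjusted p = 0.0023). WLS was the second, and it lost its call in each fit that left out a library (edgeR adjusted p of 0.064 to 0.16).

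Inside the cell, none of 19 relay and destruction complex genes was called by edgeR without the block, and 8 were higher and 2 lower with it. CTNNB1, which encodes β-catenin, was at 410 ± 9.97 and 376 ± 8.55 CPM (SD, n = 3; edgeR adjusted p = 0.47, or 0.015 with the block). Among 11 nuclear effectors 1 was higher (TCF7, log2 fold change 0.92, edgeR adjusted p = 0.0049, or 0.10 with replicates 2 and 3 summed) and 2 lower, TLE2, a co-repressor (-1.20, 0.0051, or 0.076 when summed), and TCF7L2. Of 17 names listed as feedback and target genes, 13 were in the table and 8 were tested. Among these 8, 4 were higher, namely PROX1 (2.1, 0.0035), the cyclin gene CCND1 (1.63, 2.7e-04), TCF7 and MYC, and DKK1 was lower. AXIN2, NOTUM and APCDD1 were not in the table. LGR5 (given above) and RNF43 (3, 9 and 4 reads with PDGF against 15, 7 and 10) were untested and had fewer reads with PDGF. ASCL2, also untested, went the other way (1, 1 and 2 reads against 0, 1 and 0). MYC kept its call only without SSC PDGF+ replicate 1 (edgeR adjusted p = 0.039, or 0.078 to 0.16 in the other 5 such fits) and TCF7L2 only without SSC PDGF- replicate 1 (0.015, or 0.079 to 0.18). A reading of these lists against the background shares of 7.61% and 10.7%, or 31.1% and 29% with the block, rests on few genes in each. The limit of the filter given above for ROR1, TRABD2B, SFRP4 and WIF1 holds here too.

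**Figure D5:**
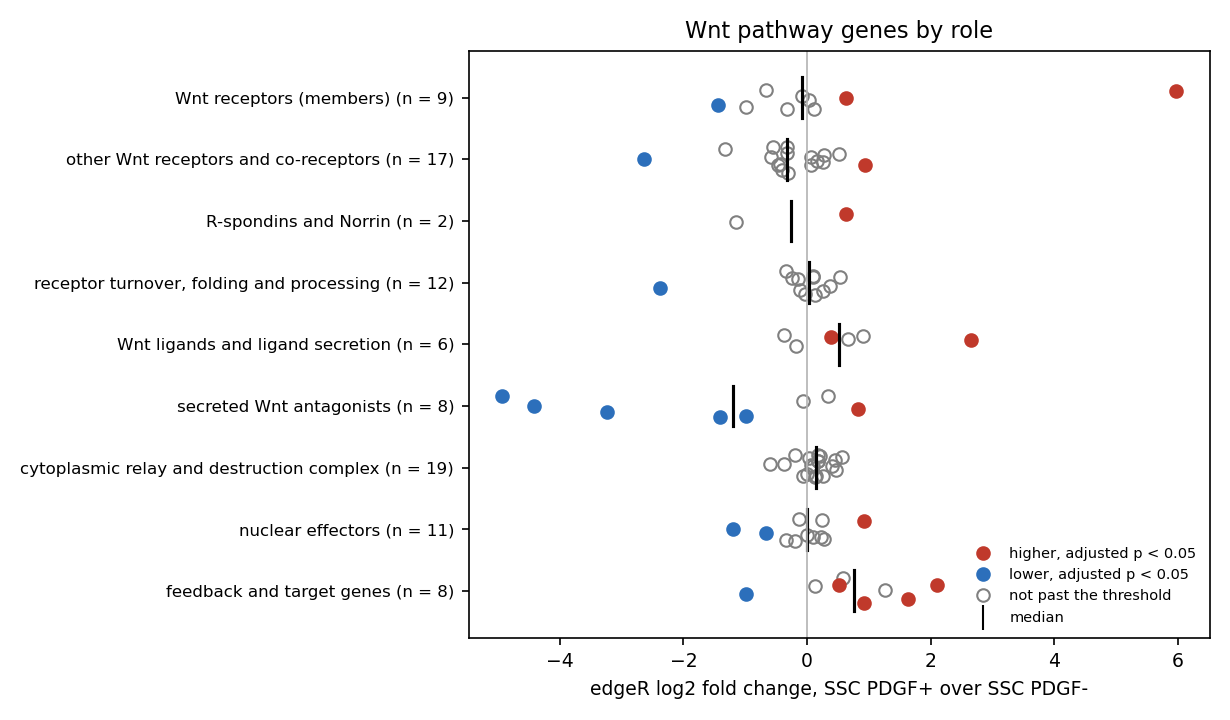
Log2 fold change from edgeR (no block) of the receptor genes and of the tested genes of each other Wnt list, with filled points past the threshold (red higher, blue lower), open points not, and a black bar at the median. The receptor at the far right is LGR6, whose fitted value depends on the prior count. The antagonist list has the lowest median (-1.20), with SFRP4 and WIF1 past the filter through SSC PDGF- alone, and no relay gene is filled.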

How the data were processed

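Bulk RNA sequencing gave 3 SSC PDGF+ and 3 SSC PDGF- libraries, with groups, replicate numbers and batches from the sample labels. The authors deposited expected counts per gene without normalization, not whole in 34 values of 13 genes, and these were rounded. The submitters' processing notes name fastp, HISAT2 2.1.0, SAMtools, featureCounts 2.0.1 and the builds Mmul_10 and Mmul_8.0.1, with no role or order, so no coordinates or genome sequences are given. Transcript lengths and GC content were taken by gene name from RefSeq Mmul_10 for 17013 genes.

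Normalization (TMM), filterByExpr and the quasi-likelihood test used edgeR 4.0.16 in R 4.3.3, fitted on all 11539 genes passing the filter, without a block. Each standard error was derived from the fold change and its F statistic (size of the log2 value over root F). Ratios of low counts carry exact binomial intervals. Libraries with the same replicate number were taken as paired, since the labels give them the same batch and they departed from their group means together (Pearson r over genes = 0.81, 0.48 and 0.50). Cross pairs within batch 2 gave 0.53 and 0.47, so within batch 2 the replicate number showed no likeness beyond that of the batch. Alternatives were DESeq2 1.42.0, limma-voom (limma 3.58.1), other normalizations, filters, models and sample sets. The steps were tested on simulated counts. Figures used Python 3.11.15 and matplotlib 3.10.9.

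The members, the Wnt lists and the tests were chosen with earlier results of these data known. Named genes are all members, up to 3 called genes in each direction per Wnt list, the 3 most correlated genes of each called member (those of LGR6 are not reported here), and any gene sharing counts or exons with a member (none was found). MYC, ROR2, RYK, FZD3, FZD9, FZD10, TSPAN12, ZNRF3, MESD, LGR5, RSPO1, RSPO3, RSPO4, RNF43, ASCL2 and CTNNB1 are named outside this rule, with their values seen. AXIN2, NOTUM and APCDD1, absent from the table, are also named outside it.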

Additional observations from a re-analysis of the deposited data

How the results depend on the processing

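Receptor genes called higher numbered 2, with 1 under upper quartile normalization and with replicates 2 and 3 summed, 0 under a stricter filter of 10 counts in each library (which drops LGR6), and 1 in each of the 6 fits that left out a library. Receptor genes called lower numbered 1 and rose to 2 with DESeq2 and batch 2 alone and to 3 with the replicate block, with batch as a term, with replicates 2 and 3 summed and batch as a term, and with the block and the GC and length correction; leaving out a library left it at 1. For the other Wnt pathway genes, 9 higher became 28 with the replicate block, batch as a term, or summed replicates with batch, 25 in batch 2 alone, 30 with the block and correction, 3 with replicates 2 and 3 summed and 5 to 11 with a library left out (5 without SSC PDGF+ replicate 2 or 3 or SSC PDGF- replicate 2 or 3). The 9 lower became 22 with the block, batch as a term, or the block and correction, 23 with summed replicates and batch, 16 in batch 2 alone and 5 with replicates summed. Calls over all genes moved with these settings too, from 18.3% in either direction to 60.1% with the block and 23.6% with DESeq2. The share was 52.8% in batch 2 alone. With replicates 2 and 3 summed it was 5.78% without and 59.1% with batch as a term. The sign of LRP5 turned under upper quartile normalization (-0.045), the stricter filter (-0.012) and summed replicates with batch (-0.0030). With a library left out, log2 fold changes ranged from -0.10 to 0.31 for FZD2, -0.37 to 0.14 for FZD7, -0.70 to 0.38 for FZD8 and -0.21 to 0.30 for LRP5, so none of these 4 has a settled sign. The block changed the calls of FZD6 and LGR4 and of no other member. LRP6 also lost its call under upper quartile normalization and the stricter filter. FZD4 kept its call in every setting. LGR6 kept its call wherever it was tested, but it passed the main filter through SSC PDGF+ alone and was not tested under the stricter one. Depth limits FZD8, LGR6, LGR5 and the R-spondins. The cause of these changes was not tested.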
